A study of Rattus norvegicus with 36 samples.

Results

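Rat alveolar macrophages exposed to the titanium dioxide G1-1 at the loading called overload were compared with their own control cultures, over 14495 genes. The comparison is defined by the labels. Like the gene lists used below, it was chosen with earlier results of these data known. It holds 6 of the 36 RNA-seq libraries of the series, 3 labelled G1-1 overload and 3 labelled G1-1 control. Both groups were primary cultures from the lungs of male rats of the strain F344/HanZtmRj. Their medium was DMEM with 1% antibiotic-antimycotic and 10% serum, in which they stood for 5 days at 37 °C and 5% CO2. The exposure lasted 4 days and was done in vitro. The labels do not say what the control cultures received, which mass of particles the overload cultures received, how old the rats were, or whether the replicates came from separate animals. The p-values therefore measure the spread between libraries labelled biological replicates, which may be partly technical. For context, 3 libraries of the G1-1 loading called non-overload and the overload and control libraries of the carbon black Printex90 and of the titanium dioxides G3-1 and Bayertitan are used further on. The series was set up to compare how alveolar macrophages of different species respond to particle overload.

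Alveolar macrophages live on the surface of the air spaces, where they take up and store inhaled particles, and overload is the state in which the particle burden outgrows that clearance. Macrophages that are activated or short of oxygen raise glucose uptake and glycolysis, and much of that programme is transcribed by hypoxia-inducible factors, which prolyl hydroxylases mark for destruction when oxygen is available. A separate programme, the integrated stress response, slows translation and is carried by the transcription factor ATF4, which raises amino acid transport and synthesis. Resident macrophages also present antigen on MHC class II molecules and secrete complement proteins.

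The 6 libraries held between 25733600 and 30038100 estimated counts, against 22274300 to 37131500 over all 36. Levels are given as CPM, that is counts relative to the TMM-scaled size of the library on the usual CPM scale, and are compared between groups, not between genes. The macrophage genes Cd68, Mrc1, Itgax, Pparg and Siglec1 were present in all 6. Cd68 was at 701, 706 and 599 CPM in the controls and 713, 821 and 791 CPM after overload. Marco encodes a scavenger receptor often used to mark alveolar macrophages. It was at 0.0362, 0.0674 and 0.136 CPM in the controls and 0.169, 0.296 and 0.0395 CPM after overload, and was too low to be tested. The summed level of 11 alveolar macrophage markers was 16511 to 21596 CPM in the controls and 14337 to 16101 CPM in the overload libraries, and most of it was Lyz2, the lysozyme gene. In bulk RNA, fewer cells of a type and less RNA per cell cannot be told apart. Some markers of other lung cells were at 0 in all 6 libraries, among them Sftpc of alveolar type II cells, Cldn5 of endothelium, Mpo of neutrophil precursors and Prg2 of eosinophils. Other members of those lists had counts. In controls and overload, endothelial markers summed to 17.3 to 21.9 and 19.9 to 28.5 CPM. Airway and type II markers summed to 6.45 to 9.41 and 6.61 to 8.74 CPM, and neutrophil markers to 9.88 to 11.6 and 7.81 to 10.5 CPM. Smooth muscle markers summed to 421 to 544 and 494 to 590 CPM. Fibroblast transcripts marked 1 library of each group: Col3a1, a fibrillar collagen gene, was at 28.7, 0 and 0 CPM in the controls and 218, 0 and 0 CPM after overload. The summed fibroblast markers were 23.9 to 138 CPM in the controls and 23.2 to 1068 CPM after overload, and those of epithelium 987 to 1513 and 1273 to 1393 CPM. Over 6 epithelial markers the mean log2 level was 0.26 higher after overload (two-sided exact permutation test, p = 0.5), and over 7 fibroblast markers 0.82 higher (exact p = 1). With 3 libraries a side, 0.1 is the smallest p that test can give.

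A gene passed where its Benjamini-Hochberg adjusted p in edgeR's quasi-likelihood test was under 0.05, and all adjusted p-values below come from that test. By it, 727 genes changed with overload, which is 5.02% of those tested. Of these, 334 were higher (2.30%) and 393 lower (2.71%). Most changes were small: 546 of the 727 (75.1%) were under 1.5-fold, and 30 genes rose and 18 fell at least 2-fold. The median log2 fold change was 0.38 among the higher genes, -0.37 among the lower genes and -0.01 over all genes tested. The 3 overload libraries lay wholly above the 3 controls for 332 called genes, wholly below them for 386, and overlapped them for 9. Over all genes tested, 3502 (24.2%) had groups that did not overlap. The counts leaned on single libraries: 348 genes passed without control 1, 400 without control 2, 412 without overload 1 and 345 without overload 3. When every library of the series with Col3a1 over 1 CPM was left out, which takes control 1 and overload 1 out of this comparison, 140 genes passed.

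Of the 157 genes that the naming rule picked among those that passed, 60 passed in each of 20 alternative fits and 25 more were lost only without the libraries with fibroblast transcripts. All 157 kept their direction in every fit. The 3 controls and 3 overload libraries overlapped in 0 of them and in 9 of all 727 called genes. The naming rule required no overlap for the largest changes and ranked other genes by p, so the 0 is no separate support. A fit that did not hold a gene is not counted against it. The fit without the libraries with fibroblast transcripts also lost libraries of the other particles, with which G1-1 shares its estimate of spread. Of G3-1 overload it kept only replicate 1, and of Printex90 control only replicate 3. The part of fewer libraries in the calls lost there was not tested. The plot of list counts and medians shows the 41 pathway lists. Each list count below stands beside 2.30% of all tested genes higher and 2.71% lower. The 4 with the most rises were hypoxia-responsive genes, glycolysis, the integrated stress response and glucose handling, and the 3 with the most falls were complement, ribosomal proteins and class II presentation.

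**Figure D1:**
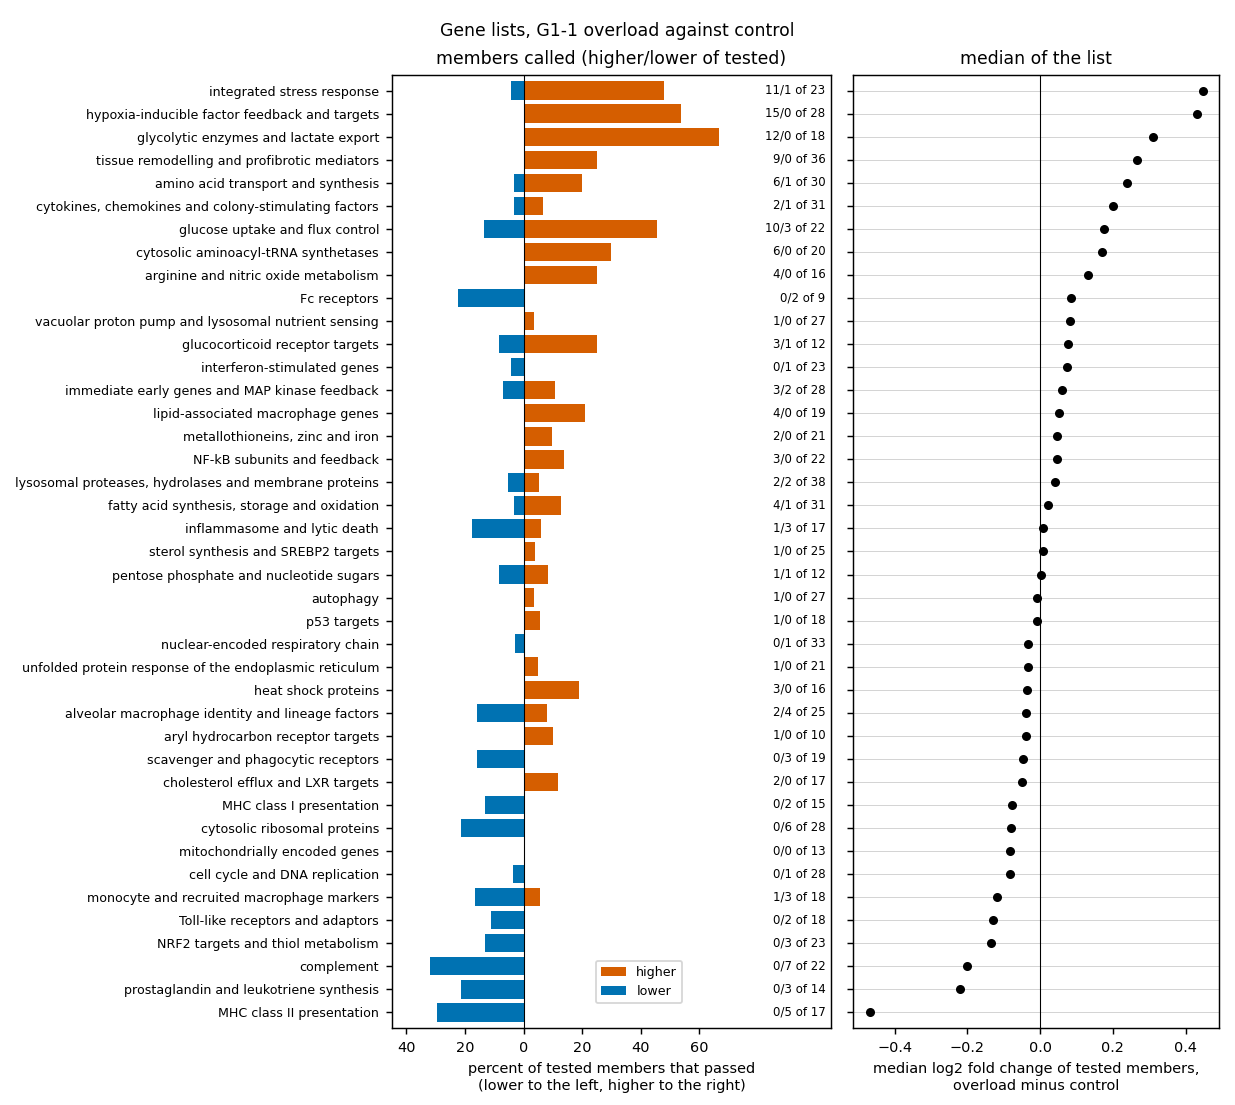
Gene lists in G1-1 overload against control. Left: share of each list's tested members that passed by edgeR (adjusted p under 0.05), higher to the right and lower to the left, with the counts printed as higher/lower of tested. Right: median log2 fold change of the tested members. Among these pathway lists the integrated stress response has the highest median (0.45) and MHC class II presentation the lowest (-0.47), beside -0.01 over all genes.

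Glucose uptake and its control held the smallest p-values of the comparison. Among 22 tested genes of that list 10 rose and 3 fell, beside 2.30% and 2.71% of all genes, and the median log2 fold change was 0.17. Slc2a1, which encodes the glucose transporter GLUT1, was at 280.1, 307 and 339 CPM in the controls and 613, 544 and 626 CPM after overload (log2 fold change 0.94 with SE 0.071, adjusted p = 3.3e-09). Every overload library was above every control by a wide margin. Hk2, the hexokinase that traps glucose in the cell, was at 490.2, 531 and 509.9 CPM in the controls and 1025, 899.9 and 1066 CPM after overload (log2 fold change 0.97 with SE 0.083, adjusted p = 3.49e-08). Pfkfb3 makes fructose 2,6-bisphosphate, the activator of phosphofructokinase. Its level was 211, 210.3 and 209 CPM in the controls, nearly identical in all 3, and 339.6, 308 and 337 CPM after overload (log2 fold change 0.64 with SE 0.058, adjusted p = 6.01e-08). Genes of glycogen handling moved the same way. Gys1, glycogen synthase, was at 60.5, 67.7 and 84.1 CPM in the controls and 149, 122 and 138 CPM after overload (log2 fold change 0.95 with SE 0.13, adjusted p = 2.15e-05), and Ppp1r3b, a subunit that directs protein phosphatase 1 to glycogen, rose by 0.64. Irs2, which encodes an insulin receptor adaptor, rose from 77.5, 77.8 and 81.9 CPM to 123, 117 and 136 CPM (log2 fold change 0.66 with SE 0.07, adjusted p = 5.48e-07).

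The 3 members that fell included both arrestin-domain genes that restrain glucose uptake. Txnip and Arrdc4 are known as genes whose transcription follows glucose-derived sugar phosphates through MondoA and ChREBP. Txnip was at 228, 189 and 139 CPM in the controls and 44.6, 73.4 and 59.5 CPM after overload (log2 fold change -1.65 with SE 0.17, adjusted p = 5.48e-07). The control libraries were spread widely, with control 1 highest and control 3 lowest, and even the lowest control was nearly double the highest overload library. Arrdc4 was at 47.01, 42.5 and 34.9 CPM in the controls and 22.6, 26.5 and 26.8 CPM after overload (log2 fold change -0.71 with SE 0.14, adjusted p = 0.00299). It was at -0.52 (adjusted p = 0.0688) without the libraries with fibroblast transcripts, while Slc2a1, Hk2, Pfkfb3, Gys1, Ppp1r3b, Irs2 and Txnip passed in all 20 alternative fits. The third member that fell was Tigar, a phosphatase that lowers fructose 2,6-bisphosphate, at -0.27 (adjusted p = 0.0165). The 10 rises on the list were 7 to 9 with 1 library left out, and the 3 falls 2 to 3.

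**Figure D2:**
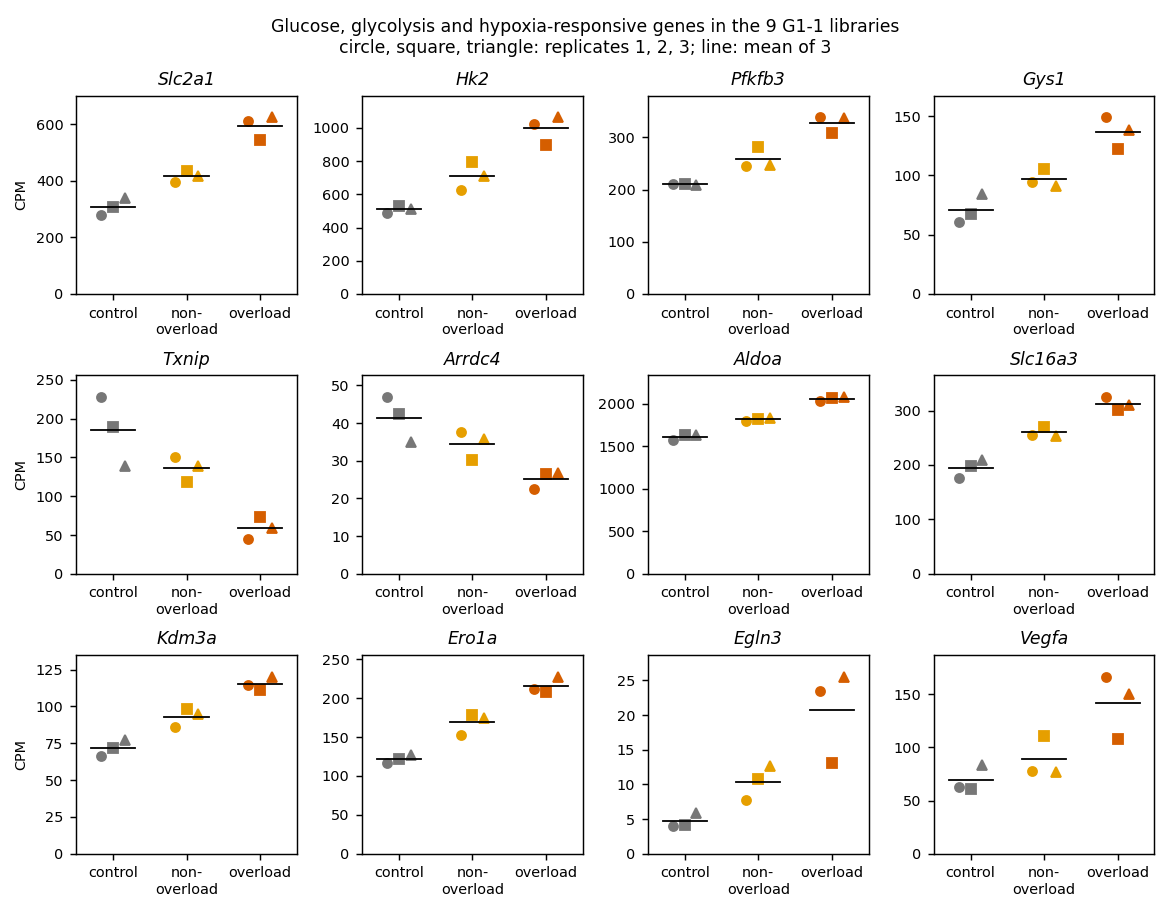
CPM of 12 genes of glucose handling, glycolysis and the hypoxia response in the 9 G1-1 libraries. Points are libraries, with circle, square and triangle for replicates 1, 2 and 3, lines are means of 3 and each axis starts at 0. For all 12 genes the 3 overload libraries lie wholly above the 3 controls, or wholly below them for Txnip and Arrdc4, and the non-overload means lie between the means of the other groups.

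Most enzymes of the glycolytic chain were higher after overload, mostly by a modest step. Of 18 tested genes 12 rose and 0 fell, and the median log2 fold change was 0.31, with 17 of 18 positive. Aldoa, an aldolase, was at 1577, 1626 and 1628 CPM in the controls and 2035, 2059.7 and 2080.2 CPM after overload (log2 fold change 0.35 with SE 0.047, adjusted p = 2.37e-05). The libraries within each group differed little, and the groups stood well apart. Eno2, an enolase, was at 99.9, 89.7 and 91.4 CPM in the controls and 147, 140.4 and 154 CPM after overload (log2 fold change 0.65 with SE 0.1, adjusted p = 0.000143). Slc16a3 encodes MCT4, the transporter that exports lactate. It was at 176, 198 and 209 CPM in the controls and 325, 302 and 310.3 CPM after overload (log2 fold change 0.68 with SE 0.11, adjusted p = 0.000277). Pfkl, a phosphofructokinase, rose by 0.61 on the log2 scale, Gpi by 0.44 and Eno1 by 0.29. The last 2 did not pass without the libraries with fibroblast transcripts, with Gpi at 0.46 (adjusted p = 0.0673) and Eno1 at 0.27 (adjusted p = 0.099). Ldha, the lactate dehydrogenase subunit of fermenting cells, was at 0.29 (adjusted p = 0.0849) and Pkm at 0.17 (adjusted p = 0.236), and neither passed. Aldoc, another aldolase, passed with a larger rise, but did not pass at 1.00 to 1.10 (without control 1 or 2 or overload 1 or 3). The count of 12 was 4 without the libraries with fibroblast transcripts and 8 to 12 when any 1 library was left out. Aldoa, Eno2, Slc16a3 and Pfkl were among the genes that passed in all 20 fits. Reads of glycolytic enzymes are shared with many processed pseudogenes, so the model that divided them adds uncertainty to these values.

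Many targets and feedback genes of the hypoxia-inducible factors rose. Of 28 tested genes 15 passed as higher and 0 as lower, 26 had a positive log2 fold change, and the median was 0.43. The prolyl hydroxylases are both regulators and targets of the pathway. Egln3 (PHD3) was at 4.02, 4.11 and 5.90 CPM in the controls and 23.5, 13.1 and 25.6 CPM after overload (log2 fold change 2.15 with SE 0.34, adjusted p = 0.000197). Overload 2 was the lowest of the 3, at more than double the highest control. Egln1 (PHD2) was at 35.1, 35.2 and 41.1 CPM in the controls and 65.4, 56.7 and 60.9 CPM after overload (log2 fold change 0.72 with SE 0.11, adjusted p = 8.05e-05), and at 0.64 (adjusted p = 0.0532) without the libraries with fibroblast transcripts. Among targets, the histone demethylase gene Kdm3a was at 66.4, 72.01 and 77.1 CPM in the controls and 114, 111 and 120.2 CPM after overload (log2 fold change 0.68 with SE 0.067, adjusted p = 3.73e-07). Ero1a, an oxidase of the endoplasmic reticulum that helps form disulphide bonds, was at 116, 122 and 127 CPM in the controls and 212, 208 and 228 CPM after overload (log2 fold change 0.82 with SE 0.085, adjusted p = 5.12e-07). Bhlhe40, a transcriptional repressor that is also a lineage factor of alveolar macrophages, rose by 0.44. Egln3, Kdm3a, Ero1a and Bhlhe40 passed in all 20 fits.

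Other hypoxia-responsive genes had larger fold changes with wider spread. Vegfa, the angiogenic growth factor, was at 62.6, 61.2 and 83.4 CPM in the controls and 167, 108 and 151 CPM after overload (log2 fold change 1.04 with SE 0.31, adjusted p = 0.0458). Adm, the vasodilator peptide adrenomedullin, was at 3.33, 5.09 and 5.93 CPM in the controls and 32.3, 9.91 and 15.6 CPM after overload (log2 fold change 2.01 with SE 0.54, adjusted p = 0.0264), with overload 1 far above the others. Ca9, a carbonic anhydrase outside the list, was at 2.17, 3.13 and 3.96 CPM in the controls and 10.2, 7.29 and 9.41 CPM after overload (log2 fold change 1.53 with SE 0.44, adjusted p = 0.0388). In each of these 3 genes the groups did not overlap, but leaving out 1 library ended the call, as did blocking the replicate numbers over the 6 libraries (Vegfa 1.03, adjusted p = 0.0569, Adm 1.85, adjusted p = 0.0634, and Ca9 1.56, adjusted p = 0.0501). The values without such a library were Vegfa at 0.92 to 1.21 (without control 1, 2 or 3 or overload 1 or 3), Adm at 1.42 to 2.06 (without control 1 or 2 or overload 1) and Ca9 at 1.34 to 1.66 (without control 1 or 2 or overload 1, 2 or 3). The same held for the mitophagy receptor gene Bnip3, which rose by 0.80 and was at 0.76 (without control 1). It held for Stc2, a secreted stanniocalcin, which rose by 2.08 and was at 1.74 to 2.10 (without control 1 or 2 or overload 1 or 3). It also held for Ddit4, an inhibitor of mTORC1, which rose by 1.32 and was at 1.04 to 1.23 (without control 1 or 2 or overload 1). Ddit4 and Stc2 are also on the stress response list. The genes of the factors themselves did not pass: Hif1a was at 0.11 (adjusted p = 0.433) and Epas1, the HIF-2 alpha gene, at 0.42 (adjusted p = 0.376). The list's count of 15 was 9 to 14 with 1 library left out, with fewer than 11 without control 1 or overload 1, and 6 without the libraries with fibroblast transcripts.

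Promoters of the genes that rose can be read for the core letters that hypoxia-inducible factors bind, ACGTG or GCGTG, and for the E-box CACGTG that holds the first of them. The sequences run from 250 bases before to 50 bases after the RefSeq start of each gene in the build GRCr8, which is later than the Rnor_6.0 build of the counts. Of the 37 genes that rose on the glucose, glycolysis and hypoxia lists, 34 had a promoter in the RefSeq table, and 24 of these (70.6%) held a core on either strand. That compares with 60.8% of the 10445 promoters of tested genes and 42.9% of all 27457 promoters, and with 72.2% of the 18 promoters of genes that rose on the stress response lists. The E-box was in 6 of the 34 (17.6%), in 9.09% of the promoters of tested genes and in 6.65% of all. The promoters of Hk2, Kdm3a, Egln3 and Vegfa held neither in this window. A match is a string of letters and not a bound site, and the window says nothing of more distant elements. The 4 sequences that follow were picked by hand among named genes that rose and held a core. Matches on either strand are in capitals, and the sequences are written 5′ to 3′ on the gene's own strand.
Slc2a1 (chr5:138002272-138002571, plus strand): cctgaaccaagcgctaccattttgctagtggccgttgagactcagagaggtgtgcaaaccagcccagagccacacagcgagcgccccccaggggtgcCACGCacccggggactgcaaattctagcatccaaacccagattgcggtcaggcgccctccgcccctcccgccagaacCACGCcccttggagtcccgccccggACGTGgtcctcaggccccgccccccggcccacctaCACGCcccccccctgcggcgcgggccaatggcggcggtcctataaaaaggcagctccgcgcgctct
Pfkfb3 (chr17:71944683-71944982, plus strand): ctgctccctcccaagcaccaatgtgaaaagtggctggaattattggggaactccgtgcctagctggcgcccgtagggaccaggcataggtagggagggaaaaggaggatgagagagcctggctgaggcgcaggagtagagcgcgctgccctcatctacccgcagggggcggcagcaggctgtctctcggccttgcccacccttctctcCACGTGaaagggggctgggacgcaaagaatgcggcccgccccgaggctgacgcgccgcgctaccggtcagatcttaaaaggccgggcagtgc
Bnip3 (chr1:203154913-203155212, minus strand): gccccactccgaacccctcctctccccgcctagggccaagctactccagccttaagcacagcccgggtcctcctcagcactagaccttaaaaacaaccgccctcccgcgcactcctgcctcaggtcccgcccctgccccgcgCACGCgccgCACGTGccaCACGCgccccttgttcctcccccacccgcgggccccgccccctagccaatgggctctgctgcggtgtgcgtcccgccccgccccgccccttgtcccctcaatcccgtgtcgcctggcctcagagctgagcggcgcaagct
Egln1 (chr19:69804632-69804931, minus strand): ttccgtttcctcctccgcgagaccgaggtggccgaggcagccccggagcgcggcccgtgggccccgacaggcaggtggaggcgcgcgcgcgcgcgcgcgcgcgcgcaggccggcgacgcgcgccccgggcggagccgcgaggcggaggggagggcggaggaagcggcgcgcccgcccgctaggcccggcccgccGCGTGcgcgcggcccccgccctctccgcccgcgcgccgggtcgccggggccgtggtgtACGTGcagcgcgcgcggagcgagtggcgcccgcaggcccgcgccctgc
Counting bases from 1 at the start and from -1 just before it, the Slc2a1 cores begin at -153, -76, -51 and -16. In Pfkfb3 the single match is an E-box at -42, and in Bnip3 an E-box at -99 stands between cores at -108 and -90. Egln1 has a core at -56 and one just inside the transcript at 3.

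Genes of the integrated stress response rose as well. Of 23 tested members 11 rose and 1 fell, and the median log2 fold change was 0.45. The pathway's transcription factor Atf4 was at 179, 194 and 208 CPM in the controls and 280.4, 242 and 269.8 CPM after overload (log2 fold change 0.45 with SE 0.078, adjusted p = 0.000801). Ddit3, which encodes the downstream factor CHOP, was at 16.8, 19.5 and 19.9 CPM in the controls and 30.1, 27.2 and 30.7 CPM after overload (log2 fold change 0.65 with SE 0.098, adjusted p = 0.000118). Trib3, a pseudokinase that damps ATF4 and CHOP, was at 6.91, 6.67 and 9.48 CPM in the controls and 23.6, 17.5 and 23.5 CPM after overload (log2 fold change 1.49 with SE 0.2, adjusted p = 1.85e-05), so that the lowest overload library held almost double the highest control. Ppp1r15a encodes GADD34, the phosphatase subunit that ends the response. It was at 57.6, 58.7 and 56.4 CPM in the controls and 86.1, 84.2 and 92.1 CPM after overload (log2 fold change 0.60 with SE 0.064, adjusted p = 5.48e-07). Gdf15, a secreted stress cytokine, was at 13.7, 19.1 and 15.04 CPM in the controls and 34.5, 25.7 and 39.2 CPM after overload (log2 fold change 1.05 with SE 0.14, adjusted p = 3.12e-05). Chac1, which breaks down glutathione, was at 2.32, 3.97 and 7.06 CPM in the controls and 13.8, 9.47 and 13.9 CPM after overload (log2 fold change 1.48 with SE 0.3, adjusted p = 0.00275), with the controls spread by a factor of about 3. Cebpg, a partner of ATF4, was the member that fell, at -0.18 (adjusted p = 0.0482), and 0 members fell with any 1 library left out or with the replicate number as a block. Ddit3, Trib3, Ppp1r15a and Gdf15 passed in all 20 fits. Atf4 was at 0.37 (adjusted p = 0.097) and Chac1 at 1.10 (adjusted p = 0.144) without the libraries with fibroblast transcripts. The count of 11 was 7 to 11 with 1 library left out, the lowest without control 1, and 4 without the libraries with fibroblast transcripts.

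Amino acid supply and tRNA charging, both downstream of ATF4 in the textbook pathway, gave mostly rises among the genes that passed. Of 30 amino acid transport and synthesis genes 6 rose and 1 fell, and the median log2 fold change was 0.24. Slc7a2, a transporter of cationic amino acids such as arginine, was at 144, 158 and 176 CPM in the controls and 289, 256 and 286 CPM after overload (log2 fold change 0.80 with SE 0.083, adjusted p = 5.12e-07). Its relative Slc7a1 rose by 0.52. Mthfd2, a mitochondrial folate enzyme, was at 30.5, 31.6 and 39.2 CPM in the controls and 58.7, 47.8 and 55.7 CPM after overload (log2 fold change 0.68 with SE 0.13, adjusted p = 0.00231). The serine synthesis gene Psat1 rose by 0.37 and the transporter gene Slc1a4 by 0.29. Glul, glutamine synthetase, fell from 1359, 1329 and 1185 CPM to 804, 903 and 845 CPM (log2 fold change -0.60 with SE 0.082, adjusted p = 2.83e-05). Of 20 cytosolic aminoacyl-tRNA synthetases 6 rose and 0 fell, with a median of 0.17. Aars was at 184, 192 and 210.3 CPM in the controls and 261, 243 and 245 CPM after overload (log2 fold change 0.35 with SE 0.047, adjusted p = 2.15e-05), and Farsb, Wars1, Eprs, Cars and Sars1 rose by 0.29 to 0.37. The synthetase count was 3 with the trend over gene span taken out and 4 to 10 with 1 library left out. Without the libraries with fibroblast transcripts the rises were 2 on the synthetase list and 2 on the amino acid list. Single omissions ended the calls of Cars at 0.30 (without control 1 or overload 1) and Sars1 at 0.28 to 0.30 (without control 1 or 2 or overload 1 or 3). Without the libraries with fibroblast transcripts the values were Slc7a1 at 0.37 (adjusted p = 0.134), Psat1 at 0.46 (adjusted p = 0.0733), Slc1a4 at 0.31 (adjusted p = 0.0558), Eprs at 0.27 (adjusted p = 0.164) and Wars1 at 0.24 (adjusted p = 0.0635), and none of these passed. Slc7a2, Mthfd2, Glul and Farsb passed in all 20 fits.

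The ATF4 and C/EBP composite element contains the letters TGATGNAA. On either strand it was in the promoters of 4 of the 18 matched genes that rose on the stress, amino acid and synthetase lists (22.2%), against 1.94% of the promoters of tested genes and 3.82% of all. The 4 genes were Trib3, Chac1, Slc7a1 and Slc1a4. Of the 23 genes that rose 18 were matched by symbol. The sequences of 3 of them follow, again picked by hand, with the element in capitals.
Trib3 (chr3:161275484-161275783, minus strand): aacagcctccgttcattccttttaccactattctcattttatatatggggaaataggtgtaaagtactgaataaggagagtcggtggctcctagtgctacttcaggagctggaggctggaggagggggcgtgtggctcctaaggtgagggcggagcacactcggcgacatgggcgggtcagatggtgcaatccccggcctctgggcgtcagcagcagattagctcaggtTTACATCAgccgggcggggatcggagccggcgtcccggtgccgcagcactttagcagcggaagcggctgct
Chac1 (chr3:126795881-126796180, plus strand): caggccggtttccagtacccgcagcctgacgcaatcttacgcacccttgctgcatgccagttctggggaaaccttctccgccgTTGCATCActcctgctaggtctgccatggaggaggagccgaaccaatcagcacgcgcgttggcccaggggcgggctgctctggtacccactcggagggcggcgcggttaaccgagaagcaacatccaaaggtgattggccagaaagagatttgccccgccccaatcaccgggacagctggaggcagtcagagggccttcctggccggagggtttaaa
Slc7a1 (chr12:11664238-11664537, plus strand): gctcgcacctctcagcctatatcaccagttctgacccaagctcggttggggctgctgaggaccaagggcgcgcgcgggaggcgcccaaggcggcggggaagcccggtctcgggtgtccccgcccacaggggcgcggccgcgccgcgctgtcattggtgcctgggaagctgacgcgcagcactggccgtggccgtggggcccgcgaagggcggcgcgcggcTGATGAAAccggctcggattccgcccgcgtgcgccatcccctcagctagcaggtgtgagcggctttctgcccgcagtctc
The element begins at -21 in Trib3, -167 in Chac1 and -30 in Slc7a1. Atf4, Ddit3, Ppp1r15a, Gdf15, Mthfd2 and Psat1 held none in this window. The count rests on 4 genes and was not tested.

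The genes of the classical class II molecules fell together. Of 17 tested members 5 were lower and 0 higher, and the list had the lowest median of all pathway lists, at -0.47. The 5 were Cd74, the invariant chain that escorts class II molecules, and the 4 classical chains RT1.Ba, RT1.Bb, RT1.Da and RT1.Db1, which are the rat counterparts of HLA-DQ and HLA-DR. Cd74 was at 154, 169 and 162 CPM in the controls and 88.6, 99.96 and 104 CPM after overload (log2 fold change -0.73 with SE 0.12, adjusted p = 0.000361). RT1.Bb was at 49.9, 55.04 and 50.2 CPM in the controls and 23.8, 27.2 and 28.2 CPM after overload (log2 fold change -0.97 with SE 0.14, adjusted p = 6.12e-05). RT1.Da was at 61.05, 58.2 and 55.3 CPM in the controls and 30.7, 35.7 and 33.2 CPM after overload (log2 fold change -0.81 with SE 0.13, adjusted p = 0.000364). In all of these the groups were well separated, with overload 1 the lowest library. RT1.Ba and RT1.Db1 fell by 0.78 and 0.90. All 5 passed in all 20 fits, and the count stayed at 5 with any 1 library left out and without the libraries with fibroblast transcripts. The RT1 family holds genes of similar sequence, between which the authors' estimation divided any shared reads. How far this touches the 4 chains was not tested. On the class I list 2 of 15 fell, the proteasome activator genes Psme1 and Psme2, and neither passed with any 1 of the 6 libraries left out. Psme1 was then at -0.18 to -0.14 and Psme2 at -0.26 to -0.21. Clec9a and Zbtb46, markers of dendritic cells, which are rich in class II, did not pass, at -0.01 (adjusted p = 0.994) and 0.17 (adjusted p = 0.81). The summed level of 5 dendritic cell markers was 4.09 to 5.66 CPM in the controls and 4.85 to 5.53 CPM after overload.

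Genes of the complement system gave the most falls of any pathway list. Of 22 tested members 7 were lower and 0 higher, with a median of -0.20. The 3 chains of C1q, which starts the classical pathway and opsonises dying cells, all fell. C1qc was at 10.6, 13 and 10.4 CPM in the controls and 3.86, 5.07 and 4.74 CPM after overload (log2 fold change -1.32 with SE 0.19, adjusted p = 5.92e-05). C1qa and C1qb fell by 0.80 and 0.92. Cfp, properdin, stabilises the alternative-pathway convertase. It was at 125, 129.6 and 109 CPM in the controls and 56.7, 66.6 and 66.7 CPM after overload (log2 fold change -0.94 with SE 0.1, adjusted p = 1.21e-06). Cfd, the protease factor D of the same pathway, was at 56.1, 60.6 and 49.6 CPM in the controls and 32.3, 29.3 and 32.3 CPM after overload (log2 fold change -0.82 with SE 0.11, adjusted p = 1.59e-05). C3ar1, the receptor gene for the fragment C3a, fell by 0.98, and Vsig4, a receptor for C3b also passed. C1qc, Cfp and Cfd passed in all 20 fits, and 4 of the list passed without the libraries with fibroblast transcripts. C1qa did not pass at -0.68 (without control 2). Without the libraries with fibroblast transcripts C1qb at -0.85 (adjusted p = 0.0812) and C3ar1 at -0.65 (adjusted p = 0.242) did not pass.

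Receptor genes of myeloid cells were among the largest falls. Fcrl2, an Fc receptor-like protein, was at 14.7, 11.9 and 8.66 CPM in the controls and 2.61, 2.55 and 2.65 CPM after overload (log2 fold change -2.17 with SE 0.26, adjusted p = 4.98e-06), the largest fall among genes with a symbol and over 5 CPM in the controls. The 3 overload libraries nearly coincided. Tlr8, an endosomal sensor of RNA, was at 179, 145 and 112 CPM in the controls and 63.3, 71.7 and 68.2 CPM after overload (log2 fold change -1.10 with SE 0.16, adjusted p = 6.12e-05). The activating receptor gene Cd300lb fell by 0.93, and Gpr18, a G protein-coupled receptor gene, by 1.09. Adgre1, which encodes the macrophage marker F4/80, was at 204, 187 and 129.6 CPM in the controls and 80.9, 93.2 and 88.2 CPM after overload (log2 fold change -0.99 with SE 0.19, adjusted p = 0.00155). The Fc gamma receptor gene Fcgr1a fell by 0.57. Cx3cr1, the fractalkine receptor of monocytes, went from 69 to 10 counts over the group, a ratio of 0.153 with a 95% interval of 0.0705 to 0.2995 for counting error alone, and passed in all 20 fits. The scavenger receptor gene Stab1 was at 29.3, 23.7 and 16.9 CPM in the controls and 10.5, 11.1 and 10.2 CPM after overload (log2 fold change -1.14 with SE 0.26, adjusted p = 0.00732), and did not pass at -0.93 (without control 1). Cd5l, a secreted protein of resident macrophages, was at 125, 93.1 and 53.1 CPM in the controls and 32.3, 49.98 and 43.4 CPM after overload (log2 fold change -1.11 with SE 0.28, adjusted p = 0.0165), and did not pass at -1.13 to -0.79 (without control 1 or 2 or overload 1 or 3). Control 1 was the highest and control 3 the lowest control for Txnip, Tlr8, Adgre1, Stab1 and Cd5l. The epithelial marker mean had the reverse order, at 6.64, 7.18 and 7.58 in controls 1, 2 and 3. After overload it was at 7.32, 7.41 and 7.47, and its part in these genes was not tested. Csf1r, the receptor for the growth factor CSF-1, fell by 0.49, and Lyz2 by 0.41. Neither passed with every library omission, the exceptions being Csf1r at -0.44 to -0.40 (without control 1 or overload 1) and Lyz2 at -0.45 to -0.30 (without control 1 or 2 or overload 1, 2 or 3). With replicate numbers blocked over the 6 libraries Lyz2 was at -0.40 (adjusted p = 0.0574). Without the libraries with fibroblast transcripts Adgre1 at -0.78 (adjusted p = 0.109), Gpr18 at -0.88 (adjusted p = 0.0566) and Fcgr1a at -0.49 (adjusted p = 0.0871) did not pass.

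**Figure D3:**
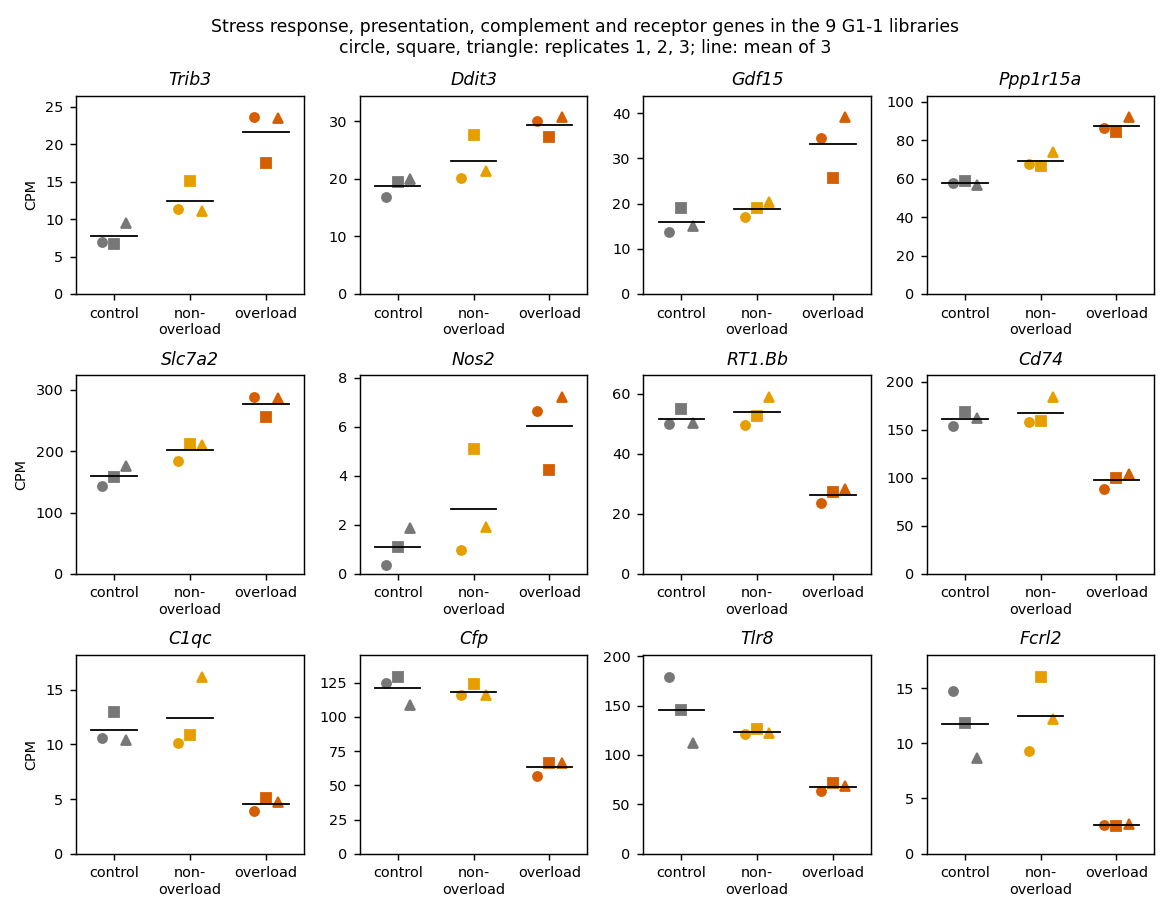
CPM of 12 genes in the 9 G1-1 libraries, with the stress response genes Trib3, Ddit3, Gdf15 and Ppp1r15a, the transporter gene Slc7a2 and Nos2, and the falling genes RT1.Bb, Cd74, C1qc, Cfp, Tlr8 and Fcrl2. Points are libraries (circle, square and triangle for replicates 1, 2 and 3), lines are means of 3 and each axis starts at 0. Non-overload libraries of RT1.Bb, Cd74, C1qc, Cfp and Fcrl2 overlap the controls.

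Of 31 cytokines, chemokines and colony-stimulating factors 2 rose and 1 fell, which is 9.68% of the list beside 5.02% of all genes. Of the 31, 23 had a positive log2 fold change. Cxcl2, a neutrophil chemokine, was at 14.04, 18.8 and 18.04 CPM in the controls and 29.8, 23.8 and 24.6 CPM after overload (log2 fold change 0.62 with SE 0.16, adjusted p = 0.0239), and lost its call when replicate numbers were blocked (0.63, adjusted p = 0.0508). Ccl7, a monocyte chemokine, was at 12.5, 15.3 and 14.7 CPM in the controls and 36.4, 19.3 and 19.3 CPM after overload (log2 fold change 0.82 with SE 0.2, adjusted p = 0.0157). Overload 1, the library with the most fibroblast transcripts, was above the rest, and their part in the value was not tested. Il1b was at 50.5, 53.3 and 45.96 CPM in the controls and 30.4, 28.8 and 24.9 CPM after overload (log2 fold change -0.83 with SE 0.24, adjusted p = 0.0414). With replicate numbers blocked over the 6 libraries Il1b was at -0.84 (adjusted p = 0.0526). Leaving out 1 library ended all 3 calls: Cxcl2 at 0.51 to 0.66 (without control 1 or overload 1 or 3), Ccl7 at 0.46 to 0.74 (without control 1 or overload 1) and Il1b at -0.88 to -0.75 (without control 1, 2 or 3 or overload 1, 2 or 3). Tnf was at 0.16 (SE 0.94, adjusted p = 0.97) and Ccl2 at 0.20 (SE 0.17, adjusted p = 0.611), and neither passed. Of 17 inflammasome genes P2rx7, the ATP-gated channel, rose by 0.41, and Pycard, the adaptor ASC, Nlrc4 and Ninj1 fell by 0.56, 0.52 and 0.24. These were 23.5% of that list. Single omissions ended the calls of Pycard at -0.47 (without overload 1), Nlrc4 at -0.51 to -0.42 (without control 2 or overload 1 or 3) and Ninj1 at -0.25 to -0.21 (without control 1, 2 or 3 or overload 1, 2 or 3), blocking the replicate numbers over the 6 libraries that of Ninj1 (-0.24, adjusted p = 0.0588), and P2rx7 at 0.46 (adjusted p = 0.105) did not pass without the libraries with fibroblast transcripts. The 5-lipoxygenase gene Alox5, whose product starts leukotriene synthesis, was at 14.3, 17.1 and 17.5 CPM in the controls and 11.02, 9.36 and 10.3 CPM after overload (log2 fold change -0.67 with SE 0.12, adjusted p = 0.00104). Alox15 and Alox5ap fell as well, by 0.72 and 0.75, so that 3 of 14 members of that list (21.4%) were lower and 0 higher. Neither of these 2 passed in every omission, the exceptions being Alox15 at -0.61 to -0.57 (without control 1 or overload 1) and Alox5ap at -0.72 to -0.52 (without control 3 or overload 1 or 2).

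Genes of arginine use, lipocalin 2 and the kinase gene Pim1 rose. Arg1, arginase, was at 134, 149.7 and 174 CPM in the controls and 230.2, 200.1 and 223 CPM after overload (log2 fold change 0.51 with SE 0.1, adjusted p = 0.00266) and passed in all 20 fits. Nos2, the inducible nitric oxide synthase that competes for arginine, was at 0.362, 1.08 and 1.88 CPM in the controls and 6.64, 4.25 and 7.23 CPM after overload (log2 fold change 2.44 with SE 0.68, adjusted p = 0.0322), and did not pass at 2.04 to 2.43 (without control 1 or 2 or overload 1 or 3). With Slc7a1 and Slc7a2, which are also on the amino acid list, 4 of 16 genes of arginine and nitric oxide metabolism rose and 0 fell. Lcn2, lipocalin 2, binds bacterial siderophores. It was at 1.95, 3.54 and 5.35 CPM in the controls and 20.2, 14.6 and 18.1 CPM after overload (log2 fold change 2.28 with SE 0.48, adjusted p = 0.00443), and was at 1.89 (adjusted p = 0.12) without the libraries with fibroblast transcripts. Pim1, a kinase of cytokine signalling, was at 14.9, 20.9 and 21.1 CPM in the controls and 44.03, 40.1 and 46.2 CPM after overload (log2 fold change 1.19 with SE 0.12, adjusted p = 4.73e-07) and passed in all 20 fits. Mt1, a metallothionein, rose by 0.60 and was at 0.54 to 0.68 and did not pass with any 1 of the 6 libraries left out, nor with replicate numbers blocked over them (0.60, adjusted p = 0.0563). Mt2A was at 29.2, 24.7 and 23.6 CPM in the controls and 88.6, 35.3 and 39.4 CPM after overload, with overload 1 far above the rest, and did not pass (adjusted p = 0.236).

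Of 36 tissue remodelling and profibrotic mediators 9 rose and 0 fell, with a median of 0.27. Tgm2, a transglutaminase that crosslinks matrix, was at 488, 621 and 611 CPM in the controls and 862, 969 and 1059 CPM after overload (log2 fold change 0.75 with SE 0.12, adjusted p = 0.000197). Plau, the urokinase gene, was at 338, 345 and 369.7 CPM in the controls and 487, 441 and 458 CPM after overload (log2 fold change 0.40 with SE 0.057, adjusted p = 6.16e-05). Mmp8, a collagenase, was at 26.7, 24.02 and 18.8 CPM in the controls and 34.4, 43.2 and 42.01 CPM after overload (log2 fold change 0.78 with SE 0.15, adjusted p = 0.00154). Tgm2 and Mmp8 passed in all 20 fits, and Plau was at 0.35 (adjusted p = 0.0733) without the libraries with fibroblast transcripts. Chi3l1 went from 57 to 335 counts, and its rise sat in 1 library: 0.507, 0.707 and 0.750 CPM in the controls against 9.46, 0.999 and 1.15 CPM after overload (log2 fold change 2.56 with SE 0.59, adjusted p = 0.00881). When replicate numbers were blocked it did not pass (1.87, adjusted p = 0.0825), nor without control 1. Mmp10, a stromelysin outside that list, had the same form, at 9.88, 7.24 and 6.61 CPM in the controls and 35.9, 14.1 and 13.5 CPM after overload (log2 fold change 1.42 with SE 0.35, adjusted p = 0.0135), and did not pass at 0.82 to 1.37 (without control 2 or 3 or overload 1). Overload 1 was the library with the most fibroblast transcripts. The part of those cells in both values was not tested, and without overload 1 Chi3l1 was at 0.72 and Mmp10 at 0.82, and neither passed. F13a1 and Plaur, the urokinase receptor gene, rose by 1.05 and 0.24, and did not pass as F13a1 at 0.86 to 0.96 (without control 1 or overload 3) and Plaur at 0.20 (without control 1 or overload 3). The list's count of 9 was 3 without control 1, lowest of the omissions, below 6 also without overload 3, and 2 without the libraries with fibroblast transcripts. Spp1 and Mmp12, 2 products of lung macrophages tied to fibrosis and emphysema, did not pass, at -0.12 (adjusted p = 0.675) and 0.03 (adjusted p = 0.933).

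Lipid and lysosome genes gave scattered calls. Scd2, a fatty acid desaturase, was at 921, 917 and 904 CPM in the controls and 1531, 1362 and 1401 CPM after overload (log2 fold change 0.65 with SE 0.08, adjusted p = 7.58e-06). Mgll, monoacylglycerol lipase, rose by 0.59, and Fnip2, a folliculin partner in lysosomal nutrient sensing, was at 272, 264 and 236 CPM in the controls and 393, 374 and 432 CPM after overload (log2 fold change 0.64 with SE 0.1, adjusted p = 0.000249). These 3 genes passed in all 20 fits. In all, 4 of 31 genes of fatty acid metabolism rose and 1 fell, 1 of 25 sterol synthesis genes rose, 1 of 27 genes of the proton pump and nutrient sensing rose, and 1 of 27 autophagy genes rose, beside 5.02% of all genes called in either direction. The share called was 16.1% for fatty acid metabolism and 10.5% for lysosomal genes. Of 38 lysosomal genes Ctsd and Grn rose by 0.28 and 0.24, and Ctsc and Ctsh fell by 0.60 and 0.24. Ctsc passed in all 20 fits, and the other 3 did not pass as Ctsd at 0.25 to 0.33 (without control 1, 2 or 3 or overload 2 or 3), Grn at 0.22 to 0.24 (without control 1 or 3 or overload 2 or 3) and Ctsh at -0.25 to -0.21 (without control 1 or 2 or overload 1, 2 or 3). Ctsd did not pass with replicate numbers blocked over the 6 libraries (0.28, adjusted p = 0.0563). Gpnmb, a lysosomal glycoprotein of lipid-laden macrophages, was at 0.13 (SE 0.1, adjusted p = 0.578) and did not pass. With both marker covariates in the fit the lysosomal list had 16 rises and the proton pump list 12.

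Genes of basic cell functions were among the falls with the smallest p-values, interleaved with Txnip, Cfp and Fcrl2. Rbis, a ribosome assembly factor, was at 29.5, 26.9 and 26.6 CPM in the controls and 18.5, 19.1 and 17.6 CPM after overload (log2 fold change -0.59 with SE 0.059, adjusted p = 4.73e-07). Polr2k, a subunit shared by the RNA polymerases, was at 27.5, 24.4 and 24.2 CPM in the controls and 14.1, 13.9 and 14.2 CPM after overload (log2 fold change -0.85 with SE 0.087, adjusted p = 4.73e-07). Timm8b, a chaperone of mitochondrial import, was at 51.4, 46.6 and 48.5 CPM in the controls and 30.4, 30.6 and 31.4 CPM after overload (log2 fold change -0.66 with SE 0.077, adjusted p = 2.38e-06). Tbca, a tubulin folding cofactor, fell by 0.42. Pdcd4, an inhibitor of translation initiation, was at 237, 205 and 183 CPM in the controls and 131, 136 and 131 CPM after overload (log2 fold change -0.65 with SE 0.085, adjusted p = 1.74e-05). All 5 passed in all 20 fits. Of 28 cytosolic ribosomal protein genes 6 fell and 0 rose, among them Rps23 at -0.35 and Rps24 at -0.47, but their abundant pseudogenes make the division of reads uncertain. Falls were more numerous among genes of short span. When the 12773 tested genes with a genomic span in the RefSeq table were split into 5 equal bins from the shortest to the longest span, 131, 87, 69, 50 and 31 fell and 47, 51, 62, 76 and 77 rose. The median log2 fold change went from -0.05 in the shortest bin to 0.05 in the longest. With that trend taken out in each library, 310 genes fell and 336 rose, where the same genes without the correction gave 383 and 325. Rbis, Polr2k, Timm8b, Tbca and the 2 ribosomal genes kept their calls there.

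Further programmes often studied in particle toxicity gave between 0 and 3 calls each. The shares were 18.8% of heat shock genes, 13% of NRF2 targets and 10% of aryl hydrocarbon receptor targets, beside 5.02% of all genes. They were 5.56% for p53 targets and 4.76% for the unfolded protein response. Interferon-stimulated genes were at 4.35% and nuclear-encoded respiratory chain genes at 3.03%. Among 23 targets of NRF2, the factor that answers oxidative stress, 0 rose and 3 fell by edgeR and 5 fell by DESeq2, 9 having an unadjusted p under 0.05 by edgeR. The 3 were Gclc, which fell by 0.55, Gsr and Gpx1, and the last 2 did not pass as Gsr at -0.31 to -0.23 (without control 1, 2 or 3 or overload 1, 2 or 3) and Gpx1 at -0.43 to -0.30 (without control 1 or 2 or overload 1, 2 or 3). With replicate numbers blocked over the 6 libraries Gpx1 was at -0.39 (adjusted p = 0.0645). Hmox1, haem oxygenase 1, was at 824, 786 and 692 CPM in the controls and 860.4, 922 and 905 CPM after overload (log2 fold change 0.22, SE 0.088, adjusted p = 0.163) and did not pass. In the unfolded protein response 1 of 21 genes rose, the sensor Ern1 (IRE1 alpha) by 0.42. Among p53 targets 1 of 18 rose and among interferon-stimulated genes 1 of 23 fell. Of 33 nuclear-encoded genes of the respiratory chain 1 fell. None of the 13 mitochondrially encoded genes passed by edgeR, with 1 at an unadjusted p under 0.05 and 0 called by DESeq2. Heat shock genes gave 3 rises of 16, each ended by leaving out 1 library: Hspb1 at 0.30 to 0.35 (without control 1 or overload 2), Hspa1b at 0.68 to 0.77 (without control 1 or 2 or overload 1 or 3) and Hspa9 at 0.12 to 0.15 (without control 1 or 2 or overload 1, 2 or 3). Hspa9 was at 0.14 (adjusted p = 0.0524) with replicate numbers blocked over the 6 libraries. Tiparp, which the aryl hydrocarbon receptor induces, was at 42.6, 44.02 and 48.6 CPM in the controls and 63.6, 57.3 and 63.9 CPM after overload (log2 fold change 0.45 with SE 0.097, adjusted p = 0.00514), and was the 1 of 10 genes of that list that passed. Without the libraries with fibroblast transcripts Gclc at -0.44 (adjusted p = 0.0665) and Tiparp at 0.41 (adjusted p = 0.164) did not pass. Among 12 lists of cell types, markers of epithelium, fibroblasts, endothelium, neutrophils, lymphocytes, dendritic cells, mast cells and the airway had 0 calls by edgeR. At an unadjusted p under 0.05 there was 1 gene each among fibroblast and T and NK cell markers, and DESeq2 called 1 fibroblast marker. Myh11, on the smooth muscle list, rose by 0.70, and was at 0.72 (adjusted p = 0.205) without the libraries with fibroblast transcripts.

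The non-overload loading of G1-1 gave 9 called genes against the same controls (0.0621%), all higher. They were Slc2a1, Hk2, Pfkfb3, Eno2, Ero1a, Kdm3a, Elmsan1, Cdr2 and Mettl9, Elmsan1 encoding a partner of histone deacetylases and the last 2 named, after their values were seen, because the count is small. Both loadings share their controls, so their values are given side by side. Slc2a1 was at 397, 435 and 417 CPM in the non-overload libraries, a log2 fold change of 0.43 (adjusted p = 0.0172) against 0.94 at overload. Hk2 was at 629, 794 and 709 CPM, a change of 0.48 (adjusted p = 0.0172) against 0.97. Eno2 was at 131, 146 and 135 CPM, a change of 0.55 (adjusted p = 0.0187) against 0.65. Genes that fell at overload differed in how they stood at non-overload. RT1.Bb was at 49.8, 52.7 and 59.1 CPM (0.06 against -0.97), Cfp at 116, 124 and 116 CPM (-0.03 against -0.94) and Fcrl2 at 9.33, 16.05 and 12.2 CPM (0.09 against -2.17). Txnip was at 151, 118 and 139 CPM (-0.45 against -1.65), and Cfd at 48.9, 41.3 and 39.4 CPM (-0.36 against -0.82). The non-overload libraries of Txnip overlapped the controls, those of Cfd lay below all 3, and so did those of Gpr18, at 7.51, 7.36 and 5.65 CPM (-0.47 against -1.09). None of these 6 falls passed at non-overload by edgeR. Over the 334 genes higher at overload the median change at non-overload was 0.16, and over the 393 lower genes -0.07. The 9 calls depended on single libraries: 0 passed without control 1, without control 2, without non-overload 2 or without non-overload 3, with 1071, 781, 691 and 542 genes at an unadjusted p under 0.05, and 2 passed without control 3. With the replicate number as a block 14 genes passed, and by DESeq2 21.

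**Figure D4:**
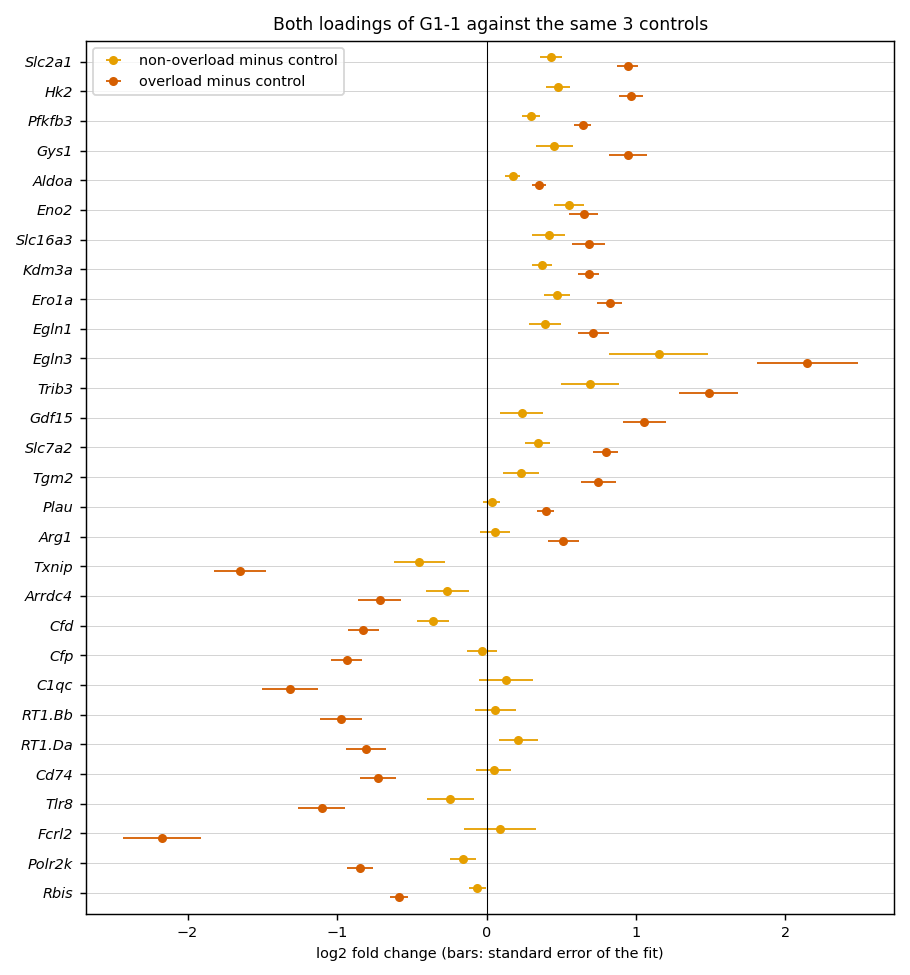
Log2 fold change of 29 genes at non-overload and overload of G1-1, each against the same 3 controls, with standard errors of the fit as bars. Glucose, glycolysis and hypoxia genes from Slc2a1 to Egln3 are displaced at both loadings, while Plau, Arg1, Cfp, C1qc, RT1.Bb, Cd74 and Fcrl2 lie near 0 at non-overload (-0.03 to 0.13).

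Set directly against non-overload, overload gave 282 called genes (1.95%), 85 higher (0.586%) and 197 lower (1.36%). Slc2a1 rose by a further 0.51 (adjusted p = 9.7e-05), Hk2 by 0.49 (adjusted p = 0.0013) and Pim1 by 0.79 (adjusted p = 0.000435). Plau rose by 0.36 and Gdf15 by 0.82. On the lower side, Fcrl2 was at -2.26 (adjusted p = 1.6e-05), C1qc at -1.44 (adjusted p = 5.49e-05), RT1.Da at -1.02 (adjusted p = 5.49e-05) and Cfp at -0.91 (adjusted p = 1.6e-05). Polr2k and Rbis fell by 0.69 and 0.53. Eno2 did not pass here, at 0.10 (adjusted p = 0.698). The count was 69 to 246 with 1 library left out, moving by more than 1.5 times without non-overload 1 (106), non-overload 2 (152), non-overload 3 (89), overload 1 (69) or overload 3 (83), and 36 without the libraries with fibroblast transcripts.

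The other particles, each against its own 3 controls in the same fit, share no controls with G1-1. With Printex90 overload 746 genes rose (5.15%) and 412 fell (2.84%), and with Bayertitan 832 rose (5.74%) and 593 fell (4.09%). With G3-1 only 13 rose (0.0897%) and 4 fell (0.0276%). All 13 of the G3-1 rises were also higher with G1-1, which is 3.89% of the G1-1 rises. They held Slc2a1, Hk2, Pfkfb3, Gpi, Eno2, Slc16a3, Egln1, Ero1a, Ak4, Bnip3 and Higd1a, all from the glucose, glycolysis and hypoxia lists, and Cdr2 and Mettl9 again. Of the G1-1 rises 118 (35.3%) also rose with Printex90, which is 15.8% of the Printex90 rises, and 64 (19.2%) with Bayertitan, 7.69% of that particle's. Of the 393 falls, 52 (13.2%) also fell with Printex90, 12.6% of its falls, 0 with G3-1, and 6 (1.53%) with Bayertitan, 1.01% of its falls. A further 23 of the G1-1 falls were higher with Bayertitan.

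Tested directly, the overload effect of G1-1 differed from the mean effect of the other 3 particles in 490 genes (3.38%), 159 upward (1.10%) and 331 downward (2.28%). Txnip was the largest contrast among the glucose genes, at -1.65 with G1-1 and 0.10, -0.36 and 0.14 with Printex90, G3-1 and Bayertitan (difference -1.61, adjusted p = 2.49e-05). Slc2a1 was at 0.94 against 0.26, 0.44 and 0.09 (difference 0.68, adjusted p = 1.86e-05). Trib3 was at 1.49 against 0.23, 0.37 and -0.81 (difference 1.56, adjusted p = 0.000199). These differences were larger than the spread between libraries in this fit, but their number was not stable. It was 96 with a covariate for the epithelial marker mean, 97 without control 1, 127 without overload 1, 151 without control 2, 180 without overload 3 and 864 without control 3. No count is given without the libraries with fibroblast transcripts. Of G3-1 overload only replicate 1 would then remain, and of Printex90 control only replicate 3. The epithelial marker mean was 0.26 above the controls in G1-1 overload (two-sided exact permutation test, p = 0.5). By library it ran from 6.64 to 7.58 in G1-1 controls and 7.32 to 7.47 after overload. For Printex90 these ranges were 7.22 to 7.89 and 6.41 to 7.47. They were 6.71 to 7.15 and 6.22 to 6.58 for G3-1, and 7.28 to 7.47 and 6.23 to 7.15 for Bayertitan. The part of epithelial transcripts in the contrast between particles was not tested.

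**Figure D5:**
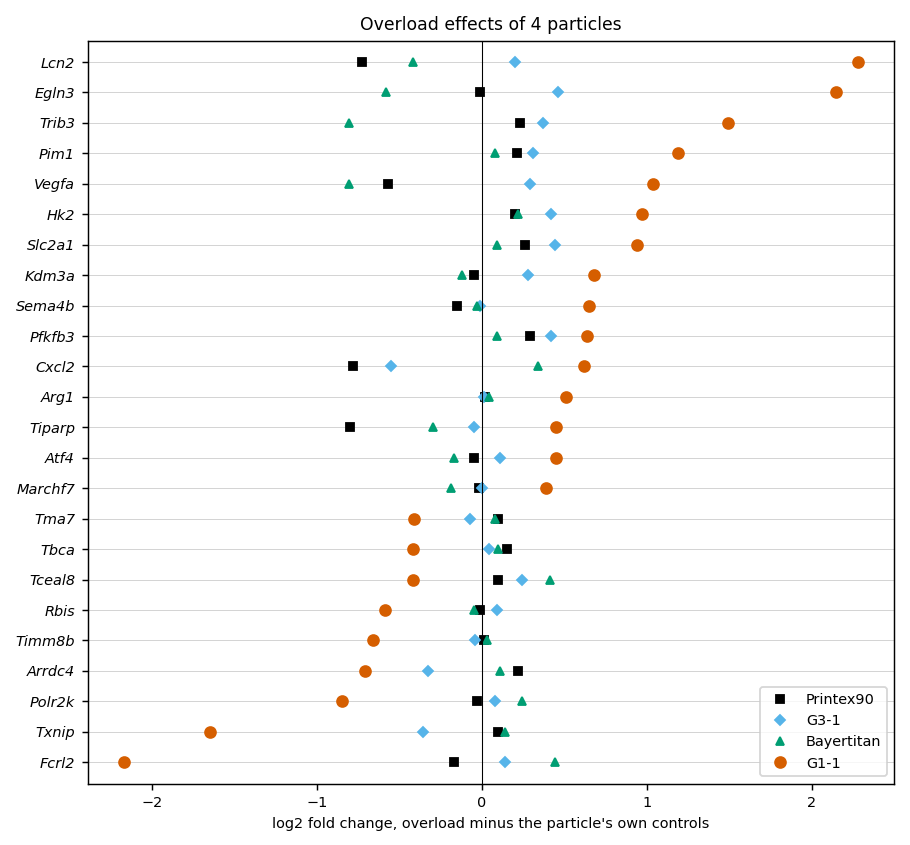
Log2 fold change of overload against each particle's own 3 controls for 24 of the 78 named genes whose G1-1 effect differed from the mean of the other 3 particles: those among the 8 smallest p-values of that difference in each direction, or on the fixed gene list. G1-1 values (orange circles) run from -2.17 for Fcrl2 to 2.28 for Lcn2. They lie outside the range of Printex90, G3-1 and Bayertitan for all 24, which follows largely from picking the genes by that difference.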

How the data were processed

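The authors deposited estimated counts, by gene, of 36 libraries, made with Salmon on the rat build Rnor_6.0, per the submitters' processing notes, which also name FastQC and MultiQC. Versions and annotation are not given in the sources used here. Each library began with 150 ng of RNA, per the labels' protocols. Of the values 47.7% were not whole, and counts were rounded. From 23487 rows, 6 that name no gene (0.0017 to 0.00244% of counts) were dropped.

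Genes were filtered with filterByExpr by group, which left 14495, and scaled by TMM. The quasi-likelihood model of edgeR 4.0.16 (limma 3.58.1, R 4.3.3) took all 36 libraries at once, with 12 group means, which leaves 24 residual degrees of freedom. Adjusted p-values are Benjamini-Hochberg over all tested genes, with a threshold of 0.05. Standard errors are from the fit. DESeq2 1.42.0, limma-voom, RLE size factors, no filter, replicate blocks, marker covariates, fewer libraries and a gene span correction were alternatives. The span correction and the block over overload and control libraries alone were chosen after the data were seen. The method was checked on simulated counts. The main fit held no replicate block. Same-numbered overload and control libraries deviated together (r = 0.379, 0.237 and 0.130), but so did control 2 and overload 3 (r = 0.216). Non-overload libraries did not follow the numbers (r = -0.218, -0.221 and 0.0888 with controls). Non-overload 2 was at 0.347 with control 1 and 0.456 with overload 1, all 3 being libraries with Col3a1 over 1 CPM. The r values therefore do not settle what the numbers pair, and blocks served as alternatives only. No 2 replicates of a G1-1 group agreed within counting noise.

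The comparison, the 53 gene lists and the rules were chosen with earlier results of these data known. Named genes were those past the test with the 15 largest rises and falls (no overlap, at least 5 CPM in the higher group), the 10 smallest p-values each way, up to 6 per list, a fixed set, and 8 each way for the 2 further contrasts. Other members of the lists are named from the lists, and were chosen after their values were seen. Estimated counts divide reads between near-identical copies, so values of gene families are uncertain, as are those of overlapping genes.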

Additional observations from a re-analysis of the deposited data

Results flagged for a closer look

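The overload effect of G1-1 differed from the mean effect of the other 3 particles, by edgeR's quasi-likelihood test of the difference itself with Benjamini-Hochberg adjustment, for 78 of the named genes. Values follow for the 24 of them that had the 8 smallest p-values of the difference in each direction or were on the fixed gene list. The values are differences of log2 fold changes. The difference was positive for Slc2a1 (0.68), Kdm3a (0.64), Tiparp (0.84), Hk2 (0.69), Pim1 (1.00), Sema4b (0.71), Trib3 (1.56), Marchf7 (0.45), Egln3 (2.19), Pfkfb3 (0.38), Atf4 (0.48), Cxcl2 (0.95), Lcn2 (2.60), Arg1 (0.49) and Vegfa (1.40). It was negative for Polr2k (-0.95), Rbis (-0.59), Tbca (-0.51), Txnip (-1.61), Fcrl2 (-2.31), Timm8b (-0.66), Tma7 (-0.44), Tceal8 (-0.67) and Arrdc4 (-0.71). Adjusted p-values ran from 6.03e-06 for Polr2k to 0.026 for Vegfa. For Tiparp, Cxcl2, Lcn2 and Vegfa the G1-1 effect was positive and that of Printex90 negative, at -0.80, -0.78, -0.73 and -0.57 on the log2 scale. Over all genes the count of such differences, 490, was 97 to 864 with 1 library left out. The epithelial marker mean rose by 0.26 between G1-1 controls and overload, and its ranges for the other 3 particles are given above. The count was 96 with that mean as a covariate. The part of that mean in single genes was not tested. With groups of 3 libraries no test for a single outlying library was made.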

How the results depend on the processing

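The count of 727 genes was 575 to 950 with DESeq2, RLE size factors, limma-voom, no filter, the 9 G1-1 libraries alone, either replicate block, the gene span correction or the fibroblast covariate. It was 345 to 627 with 1 library left out, 140 without the libraries with Col3a1 over 1 CPM, 370 with the 6 libraries alone, 1123 with the epithelial covariate and 2055 with both covariates. For these settings in turn, higher genes were 177 to 296, 92, 212, 519 and 1021, against 334, and lower genes 152 to 331, 48, 158, 604 and 1034, against 393. Overload against non-overload, 282, gave 473 by DESeq2, 36 without the Col3a1 libraries, 738 with both covariates and 69 to 246 with 1 library left out. Non-overload against control, 9, gave 21 by DESeq2, 14 with the replicate block, 0 without the Col3a1 libraries (803 at an unadjusted p under 0.05), 106 with both covariates, 2 with the 9 libraries alone and 0 to 10 with 1 left out. The difference between particles, 490, gave 821 by DESeq2, 96 with the epithelial covariate and 97 to 864 with 1 left out. It has no count without the Col3a1 libraries, since G3-1 overload then keeps only replicate 1 and Printex90 control only replicate 3. The causes were not tested beyond the fewer libraries that 3 of these settings hold by construction.

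With the replicate number as a block within each particle 779 genes passed, and 632 with a block over the 6 libraries alone. Of the 157 named genes 5 lost their call under the first (Chi3l1, Cxcl2, Zbtb16, Rpe and Ccne1) and 17 under the second (Chi3l1, Adm, Mertk, Ca9, Zbtb16, Lyz2, Il1b, Insig1, Ninj1, Mt1, Ctsd, Hspa9, Vegfa, Irf8, Gpx1, Aldoc and Ndrg2), and 0 changed direction. Col1a1 and Col3a1, which did not pass, reversed with the fibroblast covariate (-3.38 and -6.37) and with both covariates (-2.95 and -4.92). The fibroblast marker mean, 0.82, ran from -0.73 to 1.60 with 1 library left out and was negative without overload 1. Depth and 3 libraries a group limit genes of few counts, such as Cx3cr1 with 69 and 10 counts over the groups.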

Other observations

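Early response genes and targets of the glucocorticoid receptor were not described above. Of 28 immediate early genes and feedback genes of MAP kinases 3 rose and 2 fell after overload by edgeR. That is 17.9% of the list, beside 5.02% of all genes called. Klf6, a zinc finger transcription factor, was at 129, 131 and 123 CPM in the controls and 153, 150.5 and 163 CPM after overload (log2 fold change 0.28 with SE 0.051, adjusted p = 0.00104), without overlap, and passed in all 20 alternative fits. Of 12 glucocorticoid receptor targets 3 rose and 1 fell (33.3%), and the rises were 0 to 3 with 1 library left out. The fall was Zbtb16, with 31 counts over the controls and 4 after overload, a ratio of 0.137 (95% interval 0.035 to 0.386 for counting error), and it did not pass with any 1 of the 6 libraries left out. On the list of lipid-associated macrophage genes 4 of 19 were higher (21.1%) and 0 lower, but at most 2 were higher with 1 library left out. Of 28 genes of the cell cycle and DNA replication 1 fell and 0 rose (3.57%), below the share over all genes.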
